A study of Mus musculus with 40 samples.

Results

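The effect of pioglitazone (Pio) on liver gene expression was compared between genotypes in mice on control diet. The quantity reported is the difference of Pio effects: the log2 fold change of Pio over control in liver-specific PPARγ knockout (KO) mice, minus the same fold change in wildtype (WT) mice. A negative difference means that the Pio effect was lower in KO than in WT mice. It rests on 19 of the 40 mice of the series, namely 5 WT control, 5 WT Pio, 5 KO control and 4 KO Pio mice. A further KO Pio mouse, mouse 13, was left out by rule. With it included, 56 of the 69 called genes chosen by the naming rule below kept their call. Losses among those 69 are named as such, and losses of other genes only in part. The WT and KO counts come from separate tables, so expression levels are not compared between genotypes. Only the shift between Pio and control within a genotype is used.

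All mice were male, labelled strain C57BL6/J, and 5 months old at the end of 3 months of feeding. WT control mice were C57BL6/J mice on unsupplemented low-fat control diet, and WT Pio mice received that diet with 0.01% pioglitazone hydrochloride by weight. KO control and KO Pio mice received the same diets. They carried a loxP-flanked *Pparg* gene and the Alb-Cre transgene, whose albumin promoter drives the recombinase in hepatocytes, so the *Pparg* of other liver cells and of fat is not its target. WT mice carried neither construct. The genotype, the Cre transgene, the loxP allele, the colony and the count table differ together and cannot be told apart. The time of day at which livers were taken is not given in the sources used here. Each mouse gave 1 library.

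PPARγ is a nuclear receptor that binds DNA as a partner of RXR and is the target of thiazolidinediones such as Pio. It is abundant in adipocytes, where it drives genes of fat storage, and is present at a lower level in hepatocytes. Its relative PPARα is the main inducer of fatty acid oxidation genes in liver. Both receptors recognise direct repeats of a short hexamer, so their target genes overlap.

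Of 12895 genes tested, 745 (5.78%) had a difference of Pio effects with an adjusted p of at most 0.05. Of these, 406 (3.15%) had a negative and 339 (2.63%) a positive difference. In WT mice alone 2007 genes (15.6%) were called for Pio against control, 1088 (8.44%) higher and 919 (7.13%) lower. In KO mice alone 66 genes (0.512%) were called, 46 (0.357%) higher and 20 (0.155%) lower. A count in 1 genotype and not in the other is no test of a difference, which is why the difference itself was fitted. The 3 comparisons share mice. The genes with a negative difference had a median Pio effect of 0.66 in WT and -0.25 in KO mice, with a median difference of -0.91. Those with a positive difference had a median of -0.63 in WT and 0.35 in KO mice, with a median difference of 0.98. Over all tested genes, the medians were -0.01 in WT mice, 0.01 in KO mice and 0.02 for the difference. The signs of the 2 effects were opposite in 360 of the 406 and in 321 of the 339 called genes, a feature which the call itself favours.

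**Figure D1:**
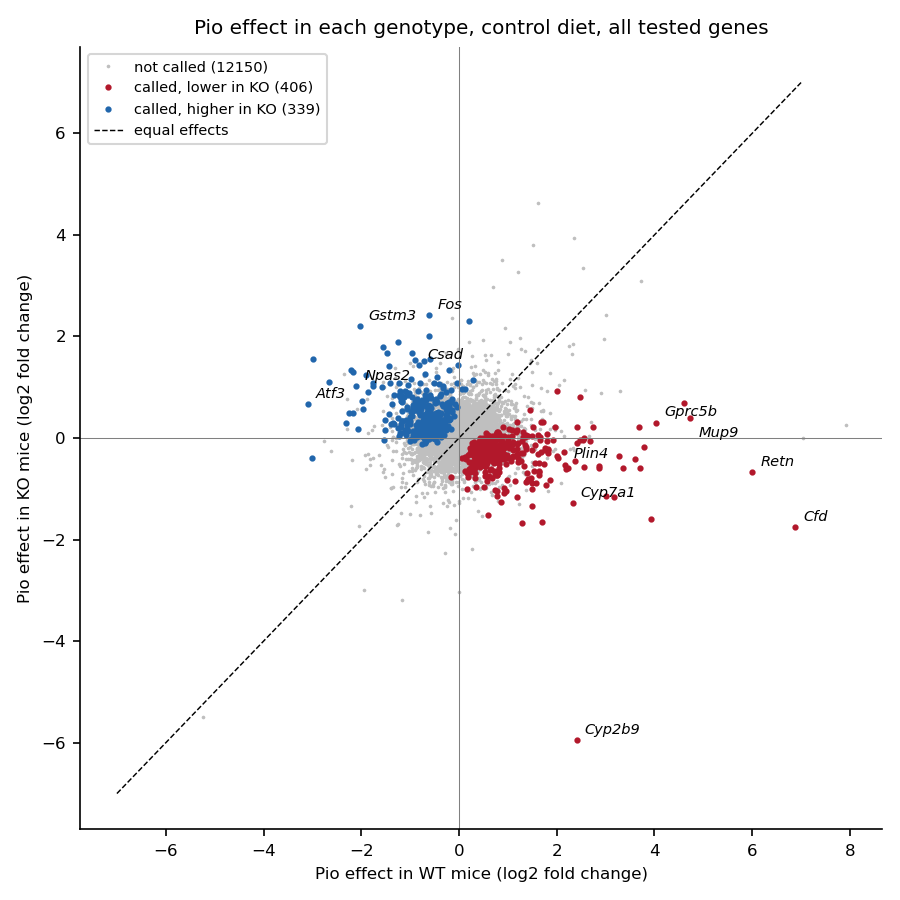
Each point is 1 of the 12895 tested genes, with the log2 Pio effect in WT mice on the horizontal axis and that in KO mice on the vertical axis. Red points are the 406 genes called with a negative difference and blue points the 339 called with a positive difference; red points lie mostly at a WT effect above zero (median 0.66) with a KO effect just below zero (median -0.25).

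The libraries held 17507725 to 37098781 counts. The count of called genes moved most with KO Pio mouse 12, without which 327 genes were called. It was 509 without WT Pio mouse 845, KO control mouse 1 or KO control mouse 3, and 1054 without WT Pio mouse 841. With mouse 13 included, 1018 genes were called, 696 with a positive difference. That library held 0.85% of its counts in mitochondrially encoded mRNAs, against 5.26 to 7.94% in the other KO Pio mice. In WT Pio mouse 845 the share was 21.03%, against 4.67 to 10.91% in the other WT Pio mice. WT control mouse 832 stood apart from the other WT control mice in several stress genes described below. Without mice 832, 845 and 12 together, 331 genes were called, and 269 of these were among the 745.

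The *Pparg* gene itself was counted in every group. The knockout removes part of the gene, so counts over the whole gene do not measure the functional receptor. *Pparg* was at 9.45, 10.6, 10.2, 5.82 and 7.14 CPM (a count scaled by library size) in WT control mice and at 10.8, 12.6, 12.6, 12.0 and 14.6 CPM in WT Pio mice. In KO mice it was at 7.64, 6.35, 3.65, 8.78 and 9.88 CPM on control diet and at 3.00, 6.67, 4.27 and 4.39 CPM with Pio. All WT Pio mice were above all WT control mice, and the KO groups overlapped. The Pio effect was 0.54 ± 0.22 (SE) in WT and -0.66 ± 0.24 in KO mice, a difference of -1.20 ± 0.33 (adjusted p = 0.025) that was no longer called without KO Pio mouse 11. Among 26 receptors and coregulators tested, 3 had a negative and 1 a positive difference (15.4%, against 5.78% of all genes). Over fits that left out 1 mouse, these counts ran from 1 to 4 and from 0 to 3. Besides *Pparg*, the negative ones were *Nr1i3*, the xenobiotic receptor CAR (-2.01 ± 0.57), and *Nr1h4*, the bile acid receptor FXR (-0.81 ± 0.23). The positive one was *Cebpb*, a transcription factor of the acute response (1.01 ± 0.31). *Cebpb* lost its call without any 1 of 15 mice, and *Nr1i3* and *Nr1h4* each lost it without any 1 of 5 mice. With the 19 mice alone *Pparg* (adjusted p = 0.0602), *Nr1i3* (0.0524), *Nr1h4* (0.0589) and *Cebpb* (0.14) were all not called. *Ppara*, which encodes PPARα, had a difference of -0.88 ± 0.32 (adjusted p = 0.101).

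Genes known from fat cells gave several of the most negative differences. Of 10 tested members of a list of adipocyte-type genes, 5 had a negative difference (50%, against 3.15% of all genes) and none a positive one, and the list's median difference was -1.31 against 0.02 over all genes. This list, like the others, was chosen with earlier results of these data known, so its share is a description and not a test. The called members were *Cfd*, *Retn*, *Gprc5b*, *Car3* and *Gpd1*. Among the 19 mice, *Retn* reached the minimum of 1 CPM only in WT Pio mice, so it passed the filter there through the group in which it was high, and its call adds nothing to this count. With 1 CPM required in 10 or more mice *Retn* dropped out. The list then had 4 negative calls among 9 tested, against 403 among 12471 genes. *Cfd* encodes adipsin, a complement protease secreted by adipocytes, and was at 1.34, 0.458, 1.20, 1.81 and 3.85 CPM in WT control mice against 404, 272, 40.9, 235 and 94.7 CPM in WT Pio mice. In KO mice it held 0 to 35 counts per library, with 25, 35, 9, 0 and 8 counts on control diet and 2, 6, 2 and 8 counts with Pio. Every WT Pio mouse was thus more than an order of magnitude above the control mice, while KO mice were near the limit of detection in both groups. The difference was -8.63 ± 1.42 (adjusted p = 0.000489), with its size set in part by the few counts in KO mice.

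*Gprc5b*, an orphan G protein-coupled receptor, likewise rose with Pio in WT mice. It was at 2.18, 6.69, 1.44, 0.751 and 1.76 CPM in WT control and at 39.8, 47.8, 24.2, 35.2 and 63.5 CPM in WT Pio mice. In KO mice it was at 0.465, 0.526, 0.461, 0.443 and 1.01 CPM on control diet and at 0.945, 0.911, 0.443 and 0.611 CPM with Pio. The WT groups did not overlap and the KO groups did. The Pio effect was 4.04 ± 0.38 in WT and 0.30 ± 0.53 in KO mice, a difference of -3.73 ± 0.65 (adjusted p = 0.000739). *Retn*, which encodes the adipocyte hormone resistin, held 1 or 2 counts in each WT control mouse and 100, 131, 61, 78 and 42 counts in the WT Pio mice. KO mice held 0 to 11 counts in both groups. No fold change or test is given from so few counts outside the WT Pio group. *Car3*, a carbonic anhydrase abundant in fat and liver, had a difference of -1.99 ± 0.48, and *Gpd1*, which makes glycerol phosphate for triglycerides, one of -1.33 ± 0.26.

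Markers that define fat cells were measured beside these genes. *Adipoq*, *Lep* and *Plin1*, which define mature adipocytes, did not pass the filter on low counts. *Adipoq* held 0 to 14 counts per library over the 19 mice, and 0, 2, 3, 0 and 0 counts in the WT Pio mice in which *Cfd* and *Retn* were high. The summed level of the 8 adipocyte markers, which include *Cfd*, was 30.9 to 47.0 CPM in WT control and 112 to 548 CPM in WT Pio mice, and 24.5 to 33.4 and 31.7 to 54.8 CPM in the KO groups. Of the 5 adipocyte markers tested, *Cfd* and *Retn* were called, *Retn* with the limit given above.

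Lipid storage genes followed, with 5 of 27 tested members called (18.5%, against 3.15% of all genes), all negative, beside a median difference of -0.04. *Mogat1*, among the 5, passed the filter mainly through the WT Pio mice in which it was high, and its call adds nothing to this count. The count was 3 without KO Pio mouse 12 and with the 19 mice alone. *Plin4* encodes a perilipin that coats lipid droplets. It was at 17.0, 23.8, 16.3, 19.8 and 18.8 CPM in WT control and at 93.8, 109, 53.6, 93.5 and 81.9 CPM in WT Pio mice, and at 5.23, 6.20, 8.89, 11.5 and 8.42 CPM in KO control and 3.37, 7.58, 6.64 and 4.73 CPM in KO Pio mice. WT Pio mice were all above WT control mice, and the KO groups overlapped. The difference was -2.70 ± 0.40 (adjusted p = 0.000185), from 2.17 ± 0.27 in WT and -0.52 ± 0.30 in KO mice. *Cidec*, which fuses small droplets into large ones, was at 8.53, 45.5, 9.39, 6.73 and 7.84 CPM in WT control and 88.8, 102, 57.7, 88.2 and 123 CPM in WT Pio mice. In KO mice it was at 3.33, 3.46, 2.85, 4.25 and 6.26 CPM and, with Pio, at 3.20, 6.78, 3.14 and 2.98 CPM. The groups of WT mice did not overlap although mouse 832 was far above the other control mice. The difference was -2.56 ± 0.59 (adjusted p = 0.00911), and without mice 832, 845 and 12 it was -3.77.

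The other called storage genes were *Gpat4*, an acyltransferase of glycerolipid synthesis (-0.87 ± 0.18, adjusted p = 0.00316), *Fitm2*, a droplet assembly protein (-0.70 ± 0.19), and *Mogat1*, a monoacylglycerol acyltransferase. *Mogat1* was at 0.25 to 1.59 CPM in WT control and 2.79 to 5.43 CPM in WT Pio mice, and under 0.5 CPM in every KO mouse, so of the 19 mice nearly all that reached 1 CPM were WT Pio mice. KO mice held 0 to 11 counts of *Mogat1*, so its difference of -2.83 ± 0.81 (adjusted p = 0.033) is given as a description only. The call was lost without any 1 of 5 mice (WT control 833, WT Pio 845, KO control 2 or 5, or KO Pio 12). *Plin2*, the main droplet protein of hepatocytes, had a Pio effect of 0.17 in both genotypes. *Cidea* held 4 to 28 counts in WT control mice, 1325 to 5481 counts in WT Pio mice and 0 to 2 counts in KO mice. Among the 19 mice it reached 1 CPM only in WT Pio mice, so no fold change or test is given for it. *Pnpla3* had the most positive value of the list, 2.06 ± 0.90 (adjusted p = 0.186).

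**Figure D2:**
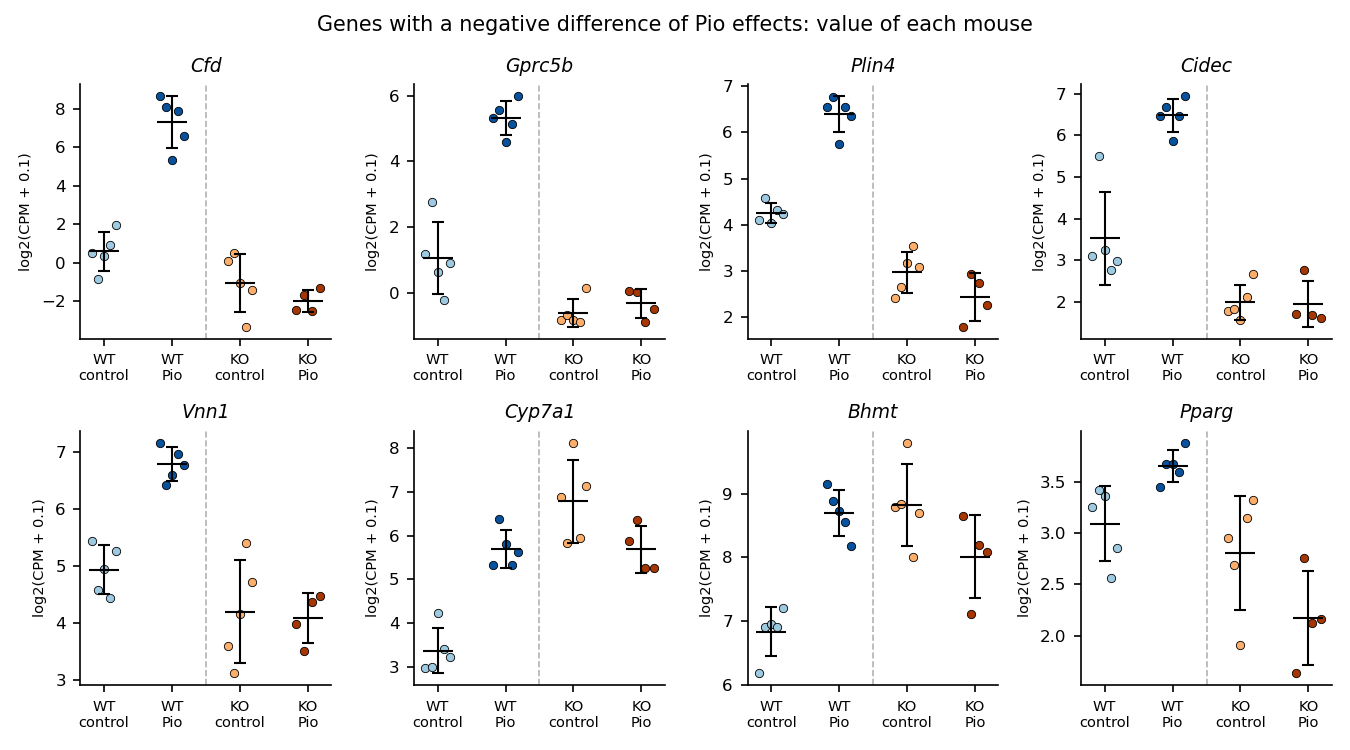
Each point is 1 mouse, plotted as log2(CPM + 0.1), with the mean and SD of each group, for 8 genes with a negative difference of Pio effects. In the WT mice left of the dashed line Pio lies above control for all 8 genes, and in the KO mice on the right the groups overlap for all 8; levels left and right come from separate count tables.

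Genes of fatty acid uptake gave 5 negative and no positive differences among 26 tested (19.2%, against 3.15% of all genes), with a median of -0.38. The count was 2 without KO control mouse 3, 1 with the 19 mice alone and 3 with mouse 13 included. *Vldlr*, the very low density lipoprotein receptor, was at 6.58, 7.91, 4.51, 3.31 and 3.19 CPM in WT control and 18.4, 20.8, 11.1, 12.7 and 23.6 CPM in WT Pio mice. It was at 1.51, 2.07, 3.65, 1.46 and 1.01 CPM in KO control and 1.97, 2.22, 0.765 and 1.60 CPM in KO Pio mice. Only the WT groups were separate. The difference was -2.0 ± 0.53 (adjusted p = 0.0218). It was lost without KO control mouse 3, and with mouse 13 included it was -1.15 (adjusted p = 0.22). *Slc27a1*, a fatty acid transporter of fat and muscle, gave -1.17 ± 0.32 (adjusted p = 0.0238), and with mouse 13 included 0.26 (adjusted p = 0.81). *Slc27a2*, the very long chain acyl-CoA synthetase of liver, gave -0.79 ± 0.22 and was not called with mouse 13 included.

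The scavenger receptor *Cd36* and the caveolar protein *Cav1* were also called, at -1.70 ± 0.51 (adjusted p = 0.0408) and -1.57 ± 0.44 (adjusted p = 0.0302). *Cd36* was lost without any 1 of 10 mice and *Cav1* without any 1 of 7, so both lay close to the threshold. The fatty acid binding protein *Fabp4* gave -2.36 ± 0.82, which did not pass (adjusted p = 0.0819), and with mouse 13 included it did (adjusted p = 0.04). In WT mice *Fabp4* was at 6.64 to 12.0 CPM on control diet and 30.7 to 198 CPM with Pio. In KO Pio mice it was at 9.33, 35.7, 6.56 and 10.9 CPM, with mouse 12 above the range of the KO control mice (5.05 to 12.2 CPM). *Fabp5* had the most positive value of the list, 2.62 ± 0.90 (adjusted p = 0.0809), with a Pio effect of 3.50 in KO and 0.88 in WT mice.

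Promoters were searched for the PPAR-RXR element, a direct repeat, since many genes with a negative difference, *Cd36*, *Mogat1* and *Cav1* among them, are fat metabolism genes. The element was written as AGGTCA, any 1 base and AGGTCA again, and accepted with up to 2 mismatches among its 12 fixed letters, on either strand, in windows from 250 bases before to 50 after each gene start (RefSeq, GRCm38.p6). The matches of 6 genes are shown 5′ to 3′, with the element in capitals and 8 flanking bases on each side.
Mogat1 (chr1:78511001-78511029, plus strand): cagaattcAGGTAAAAAGTCAggctggtg
Cd36 (chr5:17835939-17835967, plus strand, antisense to the gene): atccaagtAAGTCAGAGGCCAgagaacca
Cav1 (chr6:17307488-17307516, plus strand): aggttgtgGGGTCATAGGTCTggcggaga
Bhmt, first match (chr13:93637810-93637838, minus strand): ccagatcaAGGTCAGAGGCCTgctattgg
Bhmt, second match (chr13:93637792-93637820, minus strand): cctgctatTGGACAAAGGTCAgtgtgcag
Nr1h4 (chr10:89506859-89506887, plus strand, antisense to the gene): ctggctggAGGTCAAATGCCAcacggatg
Gdf15 (chr8:70632491-70632519, minus strand): gaccccacAGGTCAGAGGCCAcccagcag
The closest match was that of *Gdf15*, a gene with a positive difference, with 1 mismatch, and the others had 2. Each window belongs to 1 RefSeq start of its gene. For *Cd36*, *Nr1h4*, *Cav1*, *Mogat1* and *Bhmt* that start lies inside the GENCODE M21 gene, so their matches are not upstream of its outermost start. Of all 32851 windows 3.86% held a match. Of 296 genes with a negative difference and a window, 25 (8.45%) did, and of 267 with a positive difference, 10 (3.75%). Among 55 named genes with a window 8 had a match, including the positive *Gdf15* and *Dhrs9*. *Plin4*, *Cidec*, *Cfd* and *Gprc5b* had none in these letters and this window. A match is a description of the sequence and no site of binding was measured here.

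Of 51 tested members of the fatty acid oxidation list 19 had a negative difference (37.3%, against 3.15% of all genes), 1 had a positive difference, and 49 of the 51 values were below zero. The median Pio effect of the list was 0.39 in WT and -0.25 in KO mice, and the median difference -0.57. *Vnn1*, a pantetheinase known as a PPARα target, gave -2.12 ± 0.43 (adjusted p = 0.00316). It was at 43.5, 23.9, 30.7, 21.6 and 38.5 CPM in WT control and at 144, 85.7, 96.4, 126 and 110 CPM in WT Pio mice. KO mice were at 12.1, 8.61, 17.9, 42.2 and 26.3 CPM on control diet and at 15.7, 11.3, 20.8 and 22.1 CPM with Pio. The WT groups were far apart and the KO groups overlapped. *Acadm*, the medium chain acyl-CoA dehydrogenase of mitochondria, gave -1.0 ± 0.21 (adjusted p = 0.00414), from 0.58 ± 0.14 in WT and -0.42 ± 0.15 in KO mice. The most negative member was *Cyp4a10*, a fatty acid omega-hydroxylase, at -2.82 ± 0.66 (adjusted p = 0.0101). In KO control mice *Cyp4a10* was at 95.3, 74.4, 548, 614 and 421 CPM and in KO Pio mice at 129, 61.2, 218 and 146 CPM. The KO control mice fell into a low pair and a high trio. *Cyp4a10* belongs to a family of near-identical genes, so the division of reads among its members is uncertain.

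Both compartments of oxidation were represented. Called members included peroxisomal *Acaa1a*, *Acaa1b*, *Hsd17b4* and *Pex11a* and mitochondrial *Cpt1a*, *Slc25a20*, *Acadm*, *Hadh*, *Hadhb* and *Etfdh*. *Cpt1a*, which commits fatty acids to mitochondrial oxidation, gave -0.89 ± 0.20. The positive member was *Fgf21*, a hepatic hormone of fasting, at 2.61 ± 0.78 (adjusted p = 0.0417). *Fgf21* was at 27.6, 37.2, 12.5, 7.54 and 10.2 CPM in WT control and 4.30, 1.65, 2.08, 2.14 and 1.43 CPM in WT Pio mice, and at 2.35 to 15.7 CPM in KO control and 1.05 to 10.6 CPM in KO Pio mice. Its difference was lost without any 1 of 12 mice, and by limma with sample weights (adjusted p = 0.11). The number of negative calls in the list was 10 to 19 when each mouse was left out in turn, with the lowest value without KO Pio mouse 12, and 15 with mouse 13 included. It was 9 without mice 832, 845 and 12.

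**Figure D3:**
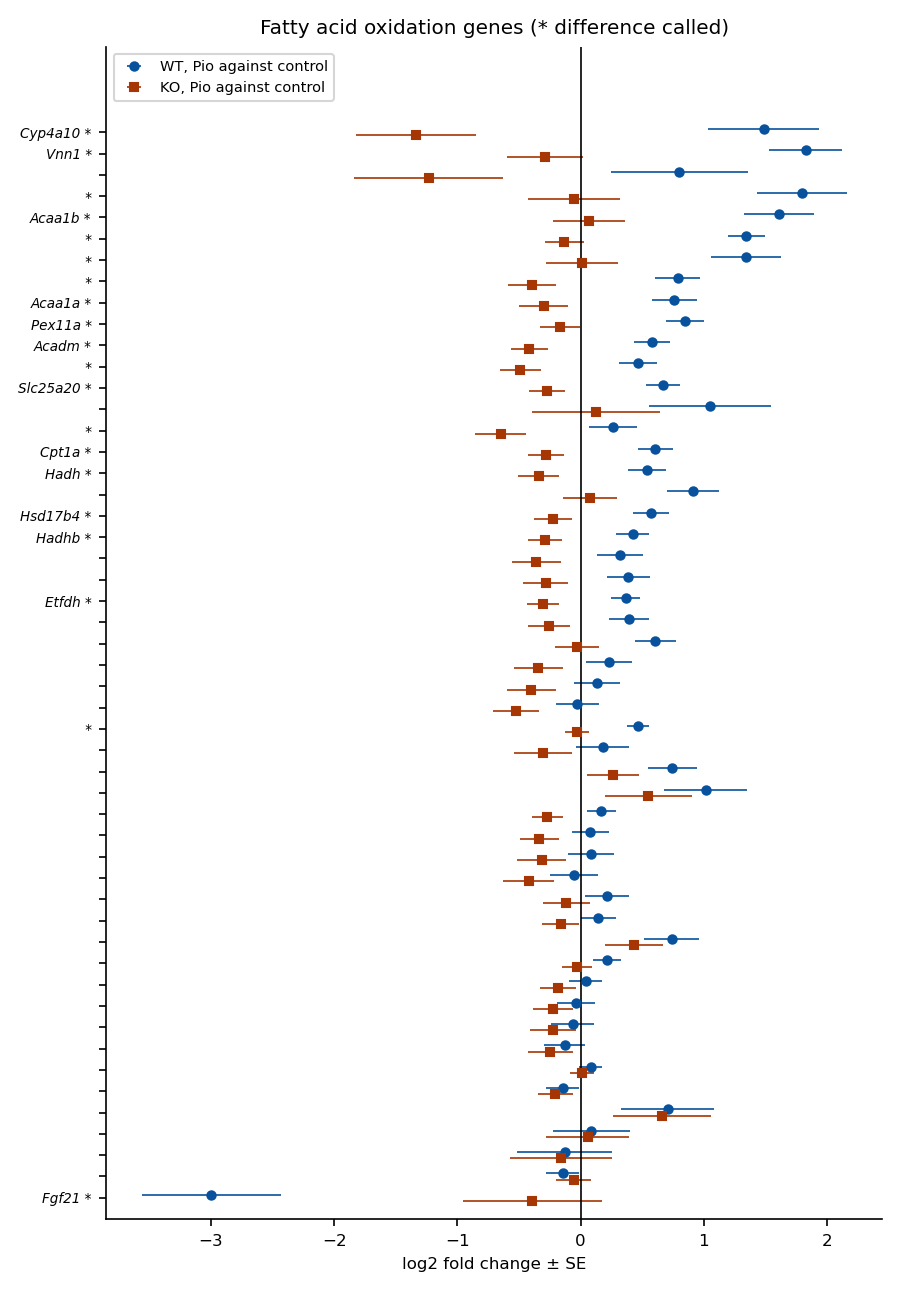
Log2 Pio effect with its SE in WT mice (circles) and KO mice (squares) for the 51 tested fatty acid oxidation genes, ordered from the most negative difference at the top, with called genes marked by an asterisk and names given for the genes described in the text. For most genes the WT effect lies above zero and the KO effect at or below zero, with Fgf21 at the bottom the exception.

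Mitochondrial genes outside fatty acid oxidation were less uniform. Of 24 genes of the citric acid cycle and pyruvate dehydrogenase 7 had a negative difference (29.2%, against 3.15% of all genes) and none a positive one, with a median of -0.44. They included *Pcx*, *Dld*, *Sucla2*, *Suclg1*, *Suclg2* and *Dlst*. *Pcx*, pyruvate carboxylase, was at 600, 585, 680, 706 and 774 CPM in WT control and 1172, 1075, 856, 1092 and 977 CPM in WT Pio mice, and at 608, 572, 681, 660 and 570 CPM in KO control and 545, 348, 548 and 483 CPM in KO Pio mice. WT Pio mice were all higher than WT control mice, and KO Pio mice all lower than KO control mice. The difference was -0.99 ± 0.20 (adjusted p = 0.00258), and with mouse 13 included -0.64 (adjusted p = 0.12). *Dld*, the shared dehydrogenase subunit of the 2-oxoacid complexes, gave -0.70 ± 0.18 (adjusted p = 0.0208). The *Dld* call was lost without KO Pio mouse 12 and with mouse 13 included (adjusted p = 0.086), and so was that of *Sucla2* (adjusted p = 0.0527 with mouse 13). The list's number of negative calls ran from 1 without mouse 12 to 8, and was 1 with mouse 13 included, so it depended on single mice.

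Of 83 tested nuclear genes of oxidative phosphorylation, 2 were called (2.41%, against 5.78% of all genes). Both, *Cox7a2l* (-0.67 ± 0.17, adjusted p = 0.0147) and *Cox15* (-0.48 ± 0.13, adjusted p = 0.0208), belong to complex IV or its assembly. Both lost the call without KO Pio mouse 12, and *Cox15* also without KO Pio mouse 15 and with the 19 mice alone (adjusted p = 0.0596). No member of complexes I, II and III or of the ATP synthase passed in this fit. DESeq2 called 6 of the 83, all negative, and limma with sample weights 5 positive and 6 negative. Both included members of complex I and the ATP synthase. Over all 12895 genes these methods called 985 and 2051. The median difference of the 83 genes was -0.17 here and 0.05 by limma. The medians of the Pio effects over the 83 genes were 0.14 in WT and -0.00 in KO mice. *Ndufs1*, the largest subunit of complex I, was at 61.9 to 77.6 CPM in WT control and 75 to 103 CPM in WT Pio mice, and gave a difference of -0.32 ± 0.15 (adjusted p = 0.218). *Mgst3*, a microsomal glutathione transferase, gave 0.02 ± 0.44 (adjusted p = 0.99). It was at 11.6 to 33.1 CPM in WT control, 21.6 to 51.2 CPM in WT Pio, 6.20 to 14.5 CPM in KO control and 10.5 to 11.9 CPM in KO Pio mice, with overlap in both genotypes, and its SE leaves a sizeable difference in either direction possible.

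Of the 13 mRNAs encoded by mitochondrial DNA, 7 were tested and the other 6 were listed at 0. *mt-Nd5* and *mt-Nd6*, subunits of complex I, had negative differences of -1.71 ± 0.41 (adjusted p = 0.012) and -1.97 ± 0.54 (adjusted p = 0.0262). *mt-Nd5* was at 6956, 4576, 7415, 5956 and 4661 CPM in WT control and 5159, 16865, 14313, 13255 and 44208 CPM in WT Pio mice. In KO mice it was at 9583, 9572, 9969, 8025 and 7742 CPM and, with Pio, at 10100, 5727, 9510 and 9537 CPM. The WT groups overlapped through mouse 841, and mouse 845 was far above the other WT Pio mice. Without mice 832, 845 and 12 neither passed (*mt-Nd5* -0.88, adjusted p = 0.12). The genes overlap on opposite strands. Mitochondrial ribosomal proteins gave 1 negative (*Mrps25*) and 1 positive call (*Mrpl19*) among 74 genes tested (2.7%, against 5.78% of all genes), with a median difference of 0.00. *Mrps25* lost its call with mouse 13 included (adjusted p = 0.0532) and without any 1 of 10 mice.

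**Figure D4:**
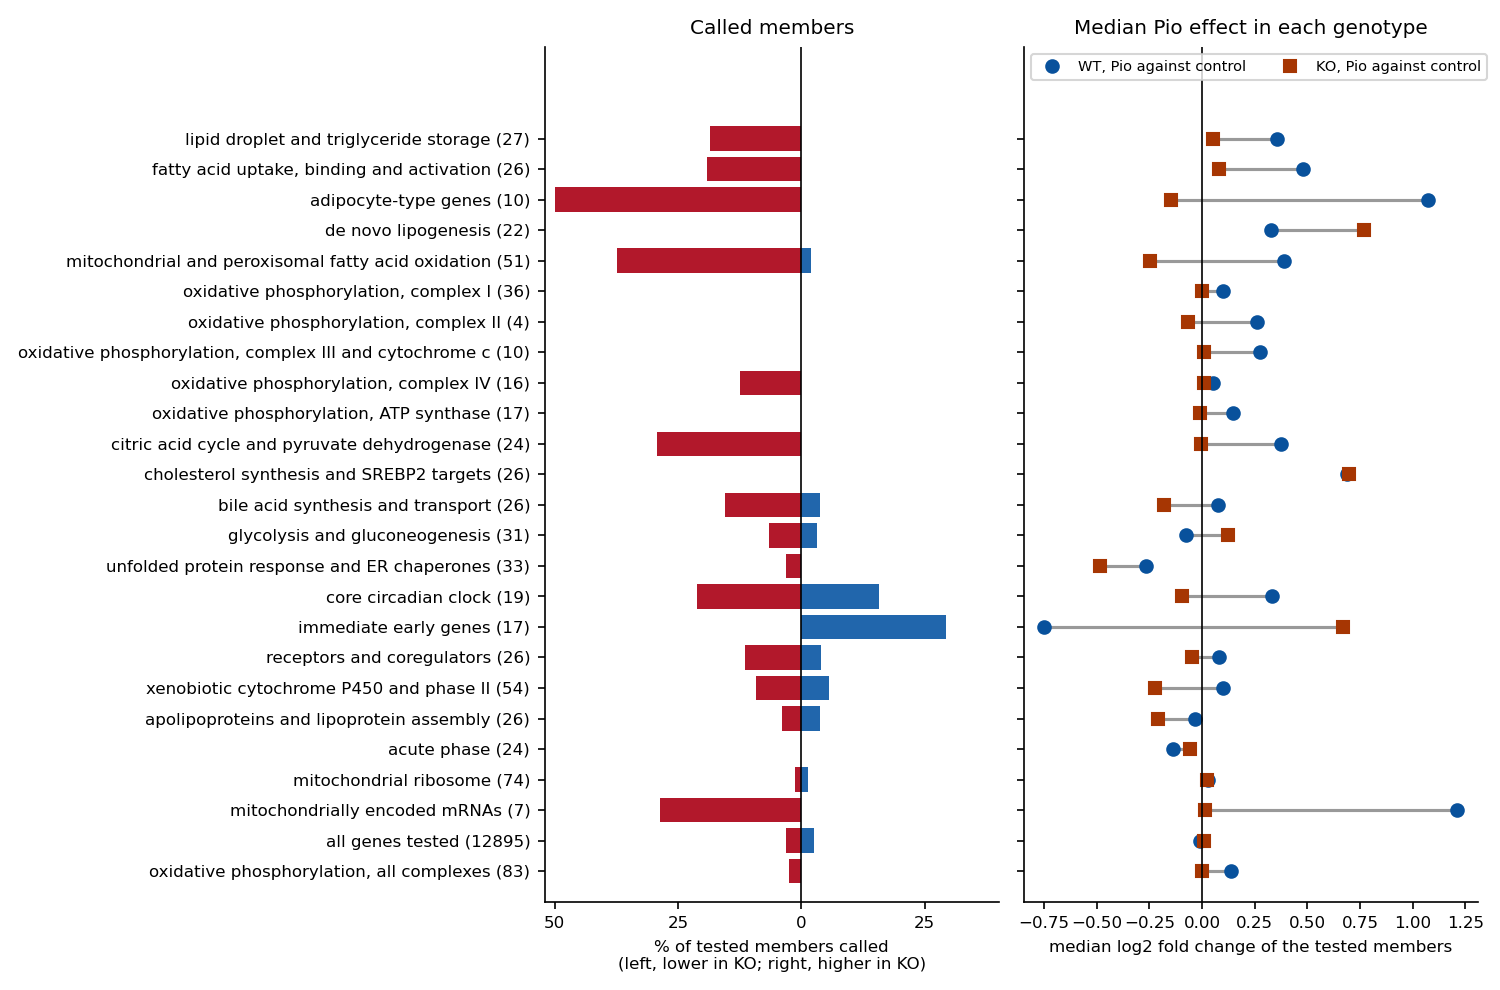
For each gene list, with the number of tested members in parentheses, the left panel gives the percentage of members called with a negative (red) or positive (blue) difference, and the right panel the median log2 Pio effect in WT (circles) and KO mice (squares). Fatty acid oxidation reaches 37.3% negative calls, and the cholesterol list has medians near 0.7 in both genotypes with no call.

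Sterol and fatty acid synthesis contrasted with oxidation. None of 26 genes of cholesterol synthesis and SREBP2 targets was called, and their median Pio effect was 0.69 in WT and 0.70 in KO mice. None of 22 genes of de novo lipogenesis was called either, with medians of 0.32 in WT and 0.77 in KO mice. The share called over all genes was 5.78%. *Scd1*, the stearoyl-CoA desaturase, had effects of 1.62 ± 0.51 and 1.75 ± 0.54. A missed threshold does not show equal effects, since the SE of the *Scd1* difference was 0.73.

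Bile acid genes differed mainly through *Cyp7a1*. *Cyp7a1*, the rate-limiting enzyme of bile acid synthesis, was at 7.73, 7.87, 18.7, 10.5 and 9.23 CPM in WT control and 40.3, 83.0, 56.3, 39.9 and 49.3 CPM in WT Pio mice. It was at 118, 56.5, 280, 61.8 and 140 CPM in KO control and 58.4, 81.7, 38.4 and 38.1 CPM in KO Pio mice. WT Pio mice were all above their controls, and the KO groups overlapped with the lower values under Pio. The Pio effects were 2.32 ± 0.42 in WT and -1.28 ± 0.43 in KO mice, a difference of -3.60 ± 0.60 (adjusted p = 0.000489), called in every fit that left out 1 mouse. Of 26 bile acid genes 4 had a negative difference (*Cyp7a1*, *Slco1b2*, *Nr1h4* and *Abcc3*) and 1 a positive one (19.2% in both directions, against 5.78% of all genes). The negative calls numbered 1 without KO Pio mouse 12 and 2 with the 19 mice alone. *Slco1b2*, a hepatic uptake transporter, gave -1.24 ± 0.35 and lost its call without KO control mouse 1 or KO Pio mouse 12. *Abcc3*, a basolateral exporter, gave -1.16 ± 0.36 and was not called with mouse 13 included. The positive gene was *Csad*, an enzyme of taurine synthesis, at 2.25 ± 0.45 (adjusted p = 0.00276). *Csad* was at 281, 113, 235, 314 and 257 CPM in WT control and 236, 148, 98.5, 115 and 87.0 CPM in WT Pio mice, and at 49.3, 51.4, 42.7, 107 and 86.0 CPM in KO control and 94.8, 209, 253 and 174 CPM in KO Pio mice. The Pio effect was -0.81 in WT and 1.44 in KO mice, with overlap between the groups in both genotypes.

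*Bhmt*, which remethylates homocysteine with betaine, was called with the smallest adjusted p of the named genes (-2.70 ± 0.37, adjusted p = 0.000114). It was at 72.1, 120, 124, 120 and 147 CPM in WT control and 565, 472, 422, 376 and 290 CPM in WT Pio mice. It was at 442, 455, 892, 258 and 413 CPM in KO control and 402, 138, 291 and 271 CPM in KO Pio mice. The WT groups were separate and the KO groups overlapped. Other strongly negative genes outside the lists were *Mup9* of the major urinary proteins (-4.34 ± 1.09), *Lrtm1* (-3.36 ± 0.75), *Osbpl3*, an oxysterol binding protein (-3.12 ± 0.82), *Olig1*, a helix-loop-helix factor (-2.84 ± 0.45), *Chrna2*, a nicotinic receptor subunit (-2.35 ± 0.39), and *Slc17a8*, a vesicular glutamate transporter (-2.27 ± 0.56). *Mup9* has near-identical neighbours, and in WT control mice it was at 0.688 to 2.70 CPM except in mouse 835, at 26.3 CPM. The *Osbpl3* call was lost without KO control mouse 5.

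Among 54 genes of xenobiotic metabolism 5 had a negative and 3 a positive difference (14.8%, against 5.78% of all genes). Over fits that left out 1 mouse, negative calls ran from 3 (without KO control mouse 3) to 7, and positive calls from 1 (without KO Pio mouse 12) to 4. *Cyp2b9* gave -8.35 ± 2.08 (adjusted p = 0.0153). KO control mouse 3 was at 47.9 CPM against 0.310 to 2.35 CPM in the other KO control mice. Without it the difference was -5.23 and was not called (adjusted p = 0.128). *Cyp2e1*, the ethanol-inducible oxidase, gave -1.81 ± 0.45 (adjusted p = 0.0133), and with the 19 mice alone it was not called (adjusted p = 0.0596). It was at 5314, 1079, 3406, 3715 and 4106 CPM in WT control, 5834, 5576, 5611, 6233 and 6993 CPM in WT Pio, 6139, 4616, 7144, 8788 and 5074 CPM in KO control and 3459, 996, 4265 and 3684 CPM in KO Pio mice. The Pio groups lay above control in WT mice and below it in KO mice, without overlap in either. *Sult1a1*, a phenol sulfotransferase, gave -1.13 ± 0.23, and *Cyp2c39* and *Cyp2a12* were the other negative members.

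The 3 positive members were glutathione transferases of the mu class. *Gstm3* had the largest positive difference of the named genes (4.23 ± 0.68, adjusted p = 0.000393). It was at 114, 633, 214, 130 and 74.8 CPM in WT control and 25.8, 62.7, 65.7, 34.1 and 98.3 CPM in WT Pio mice, and at 23.7, 30.6, 30.9, 11.9 and 21.2 CPM in KO control and 62.3, 260, 44.6 and 67.3 CPM in KO Pio mice. KO Pio mice were all above KO control mice, while the WT groups ran the other way with an overlap. Without mice 832, 845 and 12 the difference was 2.79 and was called (adjusted p = 0.0012). *Gstm1* gave 1.25 ± 0.33 and *Gstm4* 0.83 ± 0.22, and both lost the call without KO Pio mouse 12 and with mouse 13 included. These genes are close paralogs on chromosome 3.

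Clock genes differed in both directions. Of 19 tested, 4 had a negative difference (*Per2*, *Per3*, *Ciart* and *Hlf*) and 3 a positive one (*Arntl*, *Npas2* and *Cry1*), together 36.8% against 5.78% of all genes. *Arntl* and *Npas2* encode activators of the clock, and *Per2* and *Ciart* encode repressors whose expression peaks at another time of day. *Arntl* was at 17.5, 26.9, 24.6, 21.9 and 13.6 CPM in WT control and 6.78, 6.91, 10.3, 12.1 and 8.86 CPM in WT Pio mice, and at 4.61, 10.6, 5.71, 5.81 and 11.6 CPM in KO control and 18.9, 21.0, 11.8 and 13.1 CPM in KO Pio mice. The groups did not overlap in either genotype, with Pio lower in WT and higher in KO mice. The difference was 2.30 ± 0.45 (adjusted p = 0.00257). *Npas2* gave 3.12 ± 0.70 (adjusted p = 0.00725), *Cry1* 1.49 ± 0.38, *Per2* -1.91 ± 0.44 (adjusted p = 0.00847), *Ciart* -2.42 ± 0.67, *Hlf* -1.44 ± 0.40 and *Per3* -1.96 ± 0.59. *Dbp*, an output gene of the clock, gave -2.59 ± 0.85 (adjusted p = 0.0656). Collection times are unknown, and a shift in time of day between groups and a drug effect cannot be told apart. Without mice 832, 845 and 12, 1 clock gene was called with a positive and none with a negative difference. With mouse 13 included 1 was negative, and *Per3*, *Per2* (adjusted p = 0.0712) and *Hlf* (adjusted p = 0.0522) were lost. Negative calls ran from 1 without KO control mouse 3 to 7 without WT control mouse 835. *Ciart* and *Hlf* each lost the call without any 1 of 5 mice, and *Cry1* without KO Pio mouse 12.

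Immediate early genes were called in the positive direction, 5 of 17 tested (29.4%, against 2.63% of all genes) and none negative, with a median difference of 1.31. The count was 3 without WT control mouse 832 and with the 19 mice alone, 8 without KO control mouse 5, and 1 without the filter on low counts. *Fos* was at 8.19, 15.2, 8.49, 6.65 and 7.34 CPM in WT control and 4.48, 10.4, 4.86, 6.47 and 3.66 CPM in WT Pio mice. In KO mice it was at 1.71, 2.93, 2.35, 1.91 and 11.2 CPM and, with Pio, at 44.3, 12.3, 15.4 and 14.9 CPM. The KO groups did not overlap, with all Pio mice higher. The difference was 3.03 ± 0.70 (adjusted p = 0.0096). *Ier2* gave 1.35 ± 0.36, *Dusp1*, a phosphatase that ends MAP kinase signalling, 1.58 ± 0.43, and *Jund* 1.01 ± 0.31. *Atf3*, a stress-induced transcription factor, gave 3.76 ± 1.07 (adjusted p = 0.0314) and depended on WT control mouse 832, at 65.7 CPM against 1.53 to 9.51 CPM in the other WT control mice. Without mice 832, 845 and 12 its difference was 0.94 (adjusted p = 0.67), and by limma with sample weights it was not called (adjusted p = 0.75).

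Several growth and stress genes also had large positive differences. *Gdf15*, a stress hormone, gave 2.79 ± 0.72, *Cdkn1a*, the cell cycle inhibitor p21, 2.84 ± 0.84, *Nupr1* 2.77 ± 0.82, *Tnfrsf12a*, the TWEAK receptor, 2.76 ± 0.59, *Arhgef2* 2.67 ± 0.76, *Chka*, choline kinase, 2.50 ± 0.62, *Dhrs9* 3.14 ± 0.68 and *Relb*, a subunit of NF-κB, 2.24 ± 0.56. WT control mouse 832 was the highest WT control mouse in all of them. Without mice 832, 845 and 12 together none of these 8 was called. Without mouse 832 alone *Gdf15*, *Cdkn1a*, *Nupr1* and *Arhgef2* lost the call. Among fits that left out 1 mouse, *Chka* and *Relb* lost it only without KO Pio mouse 12, and *Tnfrsf12a* and *Dhrs9* kept it throughout. *Cdkn1a* lost it without any 1 of 11 mice and *Nupr1* without any 1 of 9. By limma with sample weights *Relb* (adjusted p = 0.144), *Nupr1* (0.915) and *Arhgef2* (0.809) were not called. With the 19 mice alone *Gdf15*, *Cdkn1a*, *Nupr1*, *Arhgef2* and *Relb* were not called. *Nupr1* also lost it with mouse 13 included (adjusted p = 0.0526). Positive genes that kept the call without mice 832, 845 and 12 included *Gstm3*, *Csad*, *Fos*, *Arntl* and *Pck2*. *Pck2*, mitochondrial phosphoenolpyruvate carboxykinase, gave 1.91 ± 0.35 (adjusted p = 0.00117), and 1.00 without them. *Angptl8*, a lipoprotein lipase regulator, gave 2.61 ± 0.73 and lost its call without any 1 of 6 mice.

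**Figure D5:**
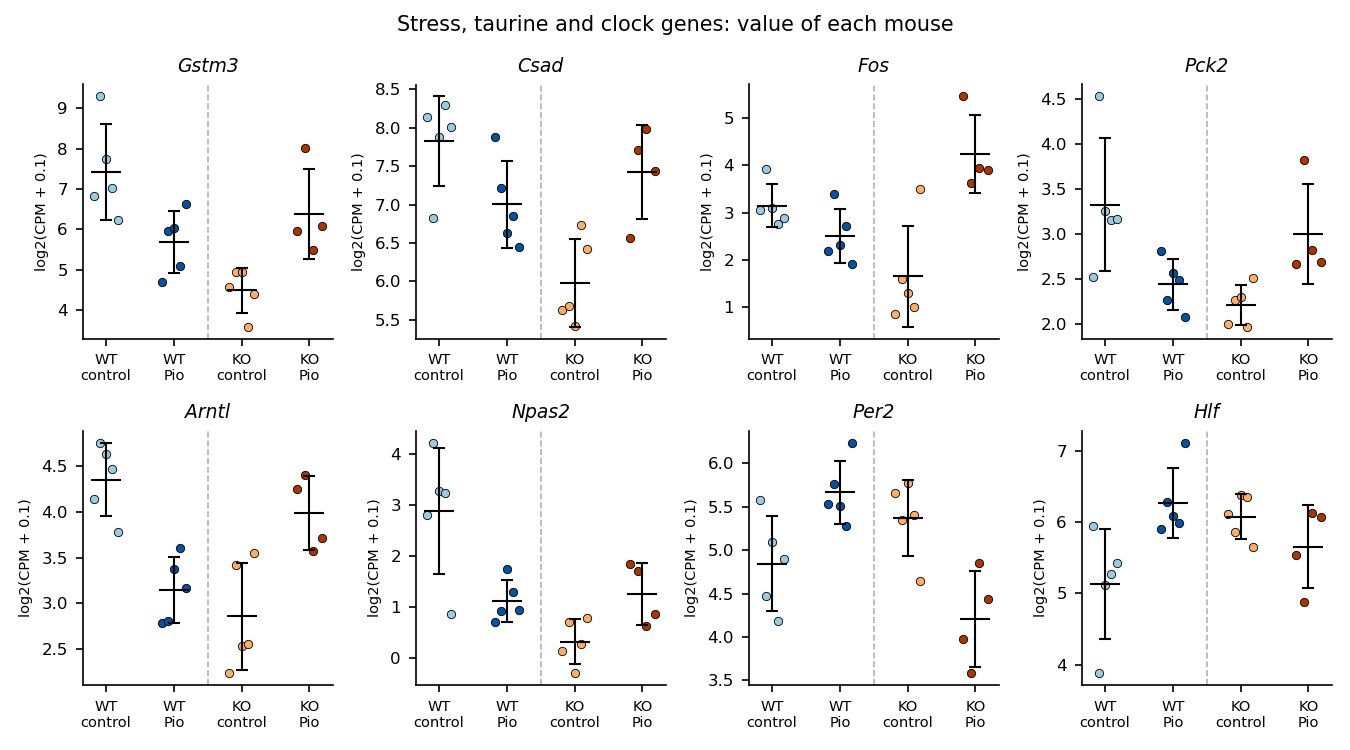
Each point is 1 mouse, plotted as log2(CPM + 0.1), with the mean and SD of each group. Gstm3, Csad, Fos, Pck2, Arntl and Npas2 have positive differences and Per2 and Hlf negative ones; the high WT control point of Gstm3 is mouse 832, and levels left and right of the dashed line come from separate count tables.

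Other lists gave calls in shares closer to that of all genes, which was 5.78%. Of 33 unfolded protein response genes 1 was called (3.03%), *Hsp90b1*, an endoplasmic reticulum chaperone (-0.77 ± 0.21). Of 31 genes of glycolysis and gluconeogenesis 1 was positive (*Pck2*) and 2 negative (*Gpd1* and *Aqp9*), together 9.68%. *Hsp90b1* and *Aqp9* lost their calls with mouse 13 included (adjusted p = 0.0547 and 0.0734). Of 26 apolipoprotein and lipoprotein genes 1 was positive (*Angptl8*) and 1 negative, together 7.69%. None of 24 acute phase genes was called. Markers of hepatocytes (10 tested), macrophages (11), endothelium (10), stellate cells and fibroblasts (11), cholangiocytes (5), lymphocytes (6) and blood (5) had no call. Blood markers were called in 3 of 5 genes without WT control mouse 832, in 2 with mouse 13 included, in 1 by DESeq2 and in 4 by limma with sample weights, all with a positive difference. Hepatocyte markers summed to 75800 to 125000 CPM in WT control, 75700 to 136000 in WT Pio, 86300 to 116000 in KO control and 95700 to 130000 in KO Pio mice. Blood markers had positive values for all 5 genes (0.60 to 1.89) and summed to 309 to 2040, 414 to 1030, 146 to 259 and 196 to 513 CPM in the same groups, and their part in the results was not tested. Markers of pancreas and skeletal muscle did not pass the filter. In bulk tissue, fewer cells of a type and less RNA per cell cannot be told apart.

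The corresponding difference on high-fat diet was a contrast of the same model of 8 groups. Its group means rest on the 20 other mice, which share no animal with the 19. It shares the estimate of the spread and the gene filter with the control-diet difference, so its calls are no independent replication. Of the genes with a negative difference 73.2% had the same sign there, and of those with a positive difference 67.6%, against 52.6% of all tested genes, and 21 genes were called on high-fat diet. *Cfd* (-7.85), *Gprc5b* (-4.48), and *Cidec* (-2.83) were called in both diets. *Plin4* gave -1.64 on high-fat diet (adjusted p = 0.066). The difference between diets was tested itself and called 8 genes, and none when any 1 of 6 mice was left out (WT control 834, KO control 3, KO Pio 15 or HFD-Pio KO mice 17, 18 or 20), without the filter on low counts or without mice 832, 845 and 12. Without WT Pio mouse 841 it called 268, and by DESeq2 148. *Cyp7a1* was 1 of them, with -3.60 on control diet and 0.94 on high-fat diet, a diet difference of 4.54 ± 0.81 (adjusted p = 0.0358). The others were *Tnfaip2*, *Cyp2j6*, *Swi5*, *Fbl*, *Snrnp70*, *Gm14286* and *Gm23119*. *Bhmt* gave -0.46 on high-fat diet, and for *Bhmt* the difference between diets was not called. For *Pparg* the value was 0.29 on high-fat diet.

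Positions of the genes most often referred to are as follows, as whole-gene spans of GENCODE M21 in GRCm38. The study aligned its reads to an Ensembl release of this assembly, and M21 was used here only for positions and overlaps. *Cfd* lies at chr10:79890853-79892655, *Gprc5b* at chr7:118972047-118995211, *Plin4* at chr17:56100591-56109803 and *Cidec* at chr6:113424634-113435760. *Cyp7a1* lies at chr4:6265612-6275633, *Bhmt* at chr13:93616675-93637961, *Csad* at chr15:102176999-102204724, *Gstm3* at chr3:107963696-107969283, *Arntl* at chr7:113207465-113314126 and *Pparg* at chr6:115360951-115490399. *Plin4* overlaps *Hdgfl2* and *Csad* overlaps *Zfp740*, each on the other strand. The strand setting of the counting is not given in the sources used here, so shared reads may have been dropped or assigned to either gene.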

How the data were processed

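Liver poly-A RNA of 40 mice was sequenced by the authors, aligned with STAR 2.0.4b to GRCm38 and counted per gene with featureCounts 1.4.5 (Subread), per the labels and the study's methods. The deposited values are raw read counts, in 1 table for WT and 1 for KO mice. The tables were joined on gene identifier (40594 genes), 355 rRNA genes were removed, and 12895 genes that reached 1 CPM in 5 or more of the mice were kept. The 19 libraries held 17507725 to 37098781 counts.

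Pio effects and their difference were fitted in 1 model of 8 groups over 39 mice, with TMM scaling and the robust quasi-likelihood test of edgeR 4.0.16 (R 4.3.3). All adjusted p-values in the text are from this test unless another is named, by Benjamini-Hochberg over all 12895 genes, called at 0.05. Values after ± are SE. CPM values are counts scaled to the TMM-adjusted library total. High-fat diet mice entered to estimate the spread. Labels do not say more about replicates than 1 mouse per library. DESeq2 1.42.0 and limma 3.58.1 were alternatives. On simulated counts for this comparison (12741 genes), 51% of genes changed by a log2 difference of 1 and 89.8% of those changed by 2 were called, and 4.8% of calls were false. The simulation gave each gene the same mean in all groups, except for few genes changed in WT Pio mice, and held no outlying mice. Its rates therefore do not give the error rate of the calls in the real data.

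Members, lists and the rule for named genes were chosen with earlier results of these data known. The rule took the genes the study illustrates, the 15 called genes with the largest difference in each direction at a mean of at least 5 CPM, up to 3 called members of each list in each direction by smallest p, the extremes of a list, and cell type markers. Genes named outside it, such as *Fitm2*, *Slc27a2*, *Car3*, *Per3*, *Jund*, *Abcc3*, *Plin2*, *Scd1* and further called list members, were chosen after their values were seen. Leaving out mice 832, 845 and 12 was an alternative also chosen after seeing the data. Promoter windows (RefSeq) were matched by symbol for 9814 tested genes. Some called list members are not reported here.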

Additional observations from a re-analysis of the deposited data

Results flagged for a closer look

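Values of single mice far from the others of their group were looked for with Dixon's test on log2(CPM + 0.5) in the 4 groups, for the 72 named genes. Of 288 groups tested 34 were set apart, where chance at 1 in 20 would give 14.4.

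Of these, 12 belonged to KO Pio mouse 12. It was the highest KO Pio mouse for *Cidec* (6.78 CPM), *Nupr1* (8.34 CPM), *Tnfrsf12a* (18.1 CPM), *Arhgef2* (24.6 CPM), *Pck2* (14.1 CPM) and *Cry1* (10.4 CPM). It was the lowest for *Slc17a8* (5.68 CPM), *Sucla2* (95.6 CPM), *Slco1b2* (357 CPM), *Cyp2e1* (996 CPM), *mt-Nd5* (5730 CPM) and *mt-Nd6* (1560 CPM).

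WT control mouse 832 accounted for 7. It was the highest WT control mouse for *Cidec* (45.5 CPM), *Osbpl3* (12.5 CPM), *Gdf15* (68.5 CPM) and *Chka* (292 CPM), and the lowest for *Csad* (113 CPM), *Cox7a2l* (16.7 CPM) and *Cyp2e1* (1080 CPM). KO control mouse 5 accounted for 6, as the highest KO control mouse for *Gprc5b* (1.01 CPM), *Osbpl3* (8.21 CPM), *Fos* (11.2 CPM), *Arhgef2* (12.4 CPM) and *Ier2* (45.4 CPM), and as the lowest for *Slc17a8* (5.39 CPM).

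The remaining values were spread over 7 mice. WT Pio mouse 845 was apart for *Cd36* (202 CPM) and *Dld* (117 CPM), and WT Pio mouse 842 for *Cyp4a10* (550 CPM) and *Slco1b2* (434 CPM). *Lrtm1* was apart in WT Pio mouse 841 (6.89 CPM) and in WT control mouse 835 (6.01 CPM), and *Bhmt* in WT control mouse 831 (72.1 CPM). *Gstm4* was apart in KO Pio mouse 14 (53.6 CPM) and *Sult1a1* in KO Pio mouse 11 (261 CPM). Whether sample quality or physiology set these mice apart was not tested.

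By tests of the difference itself, 745 genes were called as responding unequally to Pio in the 2 genotypes. The test between diets called 8 genes, of which *Snrnp70* was not among the 745 (adjusted p = 0.0968 for the control-diet difference). Both counts moved with single mice, as given below.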

How the results depend on the processing

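With mouse 13 included, calls went from 745 to 1018 for the genotype difference (540 of them shared, 68.4% positive against 45.5%), from 2007 to 506 for Pio in WT mice, from 66 to 1166 for Pio in KO mice and from 8 to 1 for the diet test. With the 19 mice alone, 471, 1610 and 10 genes were called for the first 3 of these. DESeq2 called 985, 2264, 181 and 148, and limma with sample weights 2051, 3106, 1186 and 722. Without a filter on low counts the counts were 419, 1443, 21 and 0, and without mice 832, 845 and 12 they were 331, 1137, 29 and 0. With DESeq2 size factors the diet test called 17.

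Leaving out each mouse in turn gave 327 (without KO Pio mouse 12) to 1054 (without WT Pio mouse 841) calls for the genotype difference, 1253 to 2489 in WT mice, 11 to 105 in KO mice and 0 to 268 for the diet test. *Mgst3*, near zero, changed sign with mouse 13 (-0.0985), with DESeq2 size factors (-0.00036), without the filter (-0.00019) and among single mice left out (-0.11 to 0.28). *Slc27a1* changed sign with mouse 13 (0.26). Of 69 called named genes, 33 kept their call whichever mouse was left out. The causes were not tested. No paired analysis was possible because the mouse numbers are not shared between groups.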
